A study of Drosophila melanogaster with 3 samples.

Results

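The cytoplasmic ribosomal protein (RP) genes of Drosophila melanogaster were examined for binding by Schnurri (Shn), a zinc finger protein of the BMP (Dpp) pathway. Members were the protein-coding genes whose symbol starts with RpL or RpS followed by a digit, plus sta, which encodes a small subunit protein. The rule gave 89 of 13945 protein-coding genes, 50 for the large and 39 for the small ribosomal subunit. Chromatin immunoprecipitation and sequencing (ChIP-seq) had been run on 3 biological replicates of whole mixed-sex embryos aged 0 to 24 h, all from 1 transgenic line that carries Shn fused at its C-terminus to GFP, with an antibody against GFP. No condition was contrasted, and whole embryos do not show which cells carry the binding. The authors deposited 30000 regions per replicate and for the pooled replicates, plus 3586 peaks kept by the irreproducible discovery rate procedure, called reproducible peaks here. The authors' peak caller gave every region a signal and a −log10 q, which were compared here within a list only. A control entered the authors' peak calling and was not analysed here.

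Ribosomal proteins are needed in near equal amounts, and their genes are transcribed heavily in growing cells. In flies, many of them start transcription at a TCT initiator, a pyrimidine-rich start site that differs from the usual initiator, and loss of a single copy of many of them gives the Minute phenotype of slow growth and thin bristles. Several have a duplicate gene, and some duplicates are used mainly in the germline. Schnurri is known as the partner that turns the Smad complex of Mad and Medea into a repressor of genes such as brk.

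Promoter sequences of 8 members are shown because they cover the strongest sites, pairs of paralogues that differ in binding, and a gene with no pooled region. Each runs 5′ to 3′ on the strand of the gene, from 110 bases before the canonical transcription start site (TSS) to its first 10 transcribed bases, in the RefSeq Release 6 genome (dm6). Capitals mark a DRE (TATCGATA) or a TCT initiator, searched as CTTT with a C or T on either side, within 5 bases of its place at the TSS and on the strand of the gene.
RpS27, chr3R:25247505-25247624, minus strand: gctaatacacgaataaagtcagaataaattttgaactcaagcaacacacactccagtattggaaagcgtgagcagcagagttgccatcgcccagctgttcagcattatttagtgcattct
RpL14, chr3L:8600896-8601015, plus strand: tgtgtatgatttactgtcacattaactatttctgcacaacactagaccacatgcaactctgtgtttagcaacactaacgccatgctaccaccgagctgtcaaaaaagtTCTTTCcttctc
RpL23A, chr3L:1668645-1668764, minus strand: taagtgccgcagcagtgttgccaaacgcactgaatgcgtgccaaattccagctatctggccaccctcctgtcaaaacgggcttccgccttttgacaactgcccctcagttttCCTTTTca
RpS5a, chrX:17148255-17148374, minus strand: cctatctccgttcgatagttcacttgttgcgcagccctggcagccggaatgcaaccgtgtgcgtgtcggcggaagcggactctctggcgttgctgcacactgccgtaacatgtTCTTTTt
RpS5b, chr3R:14901554-14901673, minus strand: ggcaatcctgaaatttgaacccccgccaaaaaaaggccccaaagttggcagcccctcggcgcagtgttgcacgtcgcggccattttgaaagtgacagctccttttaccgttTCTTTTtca
RpS10b, chrX:19597930-19598049, plus strand: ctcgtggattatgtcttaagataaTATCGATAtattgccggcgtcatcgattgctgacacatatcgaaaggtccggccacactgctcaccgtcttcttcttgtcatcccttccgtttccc
RpS10a, chr3R:27652650-27652769, plus strand: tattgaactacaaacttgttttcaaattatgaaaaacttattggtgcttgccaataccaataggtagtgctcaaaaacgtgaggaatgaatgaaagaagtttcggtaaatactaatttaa
RpS3, chr3R:23358702-23358821, plus strand: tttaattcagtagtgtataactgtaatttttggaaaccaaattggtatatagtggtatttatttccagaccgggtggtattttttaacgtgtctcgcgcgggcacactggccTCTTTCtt
The first 3 genes carried reproducible peaks of high rank. RpS5a and RpS10b were bound while their paralogues RpS5b and RpS10a were not, and RpS3 had no pooled region within 1 kb of its TSS. A TCT match stood in RpL14, RpL23A, RpS5a, RpS5b and RpS3, so bound and unbound genes both carried it. The DRE of RpS10b began 86 bases before the TSS.

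Schnurri peaks lay at the promoters of most RP genes, and the strongest were at RpS27, RpL7, RpL23A and RpL14. A gene was counted as bound when a reproducible summit lay within 1 kb of any of its TSSs. By that rule 62 of 89 RP genes were bound (69.7%, Wilson 95% interval 59.5 to 78.2), beside 21.1% of all protein-coding genes. Intervals cover counting error over genes, which are not replicates. Among the reproducible peaks of highest pooled signal, ranks 1 to 100 held the peaks of 3 RP genes and ranks 1 to 1000 those of 33. That is 37.1% of RP genes, against 7.07% of all other genes. The median rank was 904 for bound RP genes and 1562 for the 2887 other bound genes. Pooled signal at bound RP genes ran from 777 at RpS27 to 92.1 at RpL12.

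RpS27 (FBgn0039300, 3R from 25245955 to 25247514, minus strand) encodes a zinc finger protein of the small subunit. Its summit lay 19 bp upstream of the TSS in intergenic sequence, and it ranked 153, 44 and 28 in replicates 1, 2 and 3. RpL7 (FBgn0005593, 2L from 10201004 to 10202321) had its summit 21 bp downstream in its own 5' UTR, with a pooled signal of 758 and ranks of 193, 59 and 19. The summit of RpL23A, which encodes a protein at the mouth of the peptide exit tunnel, was 113 bp upstream and ranked 253, 128 and 47. RpL14 had its summit 30 bp upstream and ranked 703, 157 and 55. In these 4 genes replicate 3 gave the best rank and replicate 1 the poorest.

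Other members near the top of the pooled list did not all follow that order. RpL34b ranked 140, 149 and 110 in replicates 1, 2 and 3, and RpL32, a common reference gene for RNA measurements, ranked 224, 312 and 147. For RpS20 replicate 1 was best, at rank 113, against 147 in replicate 2 and 308 in replicate 3. RpL22 ranked 1023, 210 and 103, and RpS25 ranked 544, 309 and 166. RpL41, which encodes the smallest protein of the ribosome, ranked 635, 533 and 106. Its summit, 88 bp upstream, fell in the body of NaCP60E, outside coding sequence and UTRs. The next 4 by pooled signal were RpL13A at 358, RpL28 at 354, RpL26 at 341 and RpS10b at 331, and RpL24 at 318 completed the first 15. All 15 appeared in every replicate's top list, the top list being the 3586 regions of highest signal in a replicate.

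**Figure D1:**
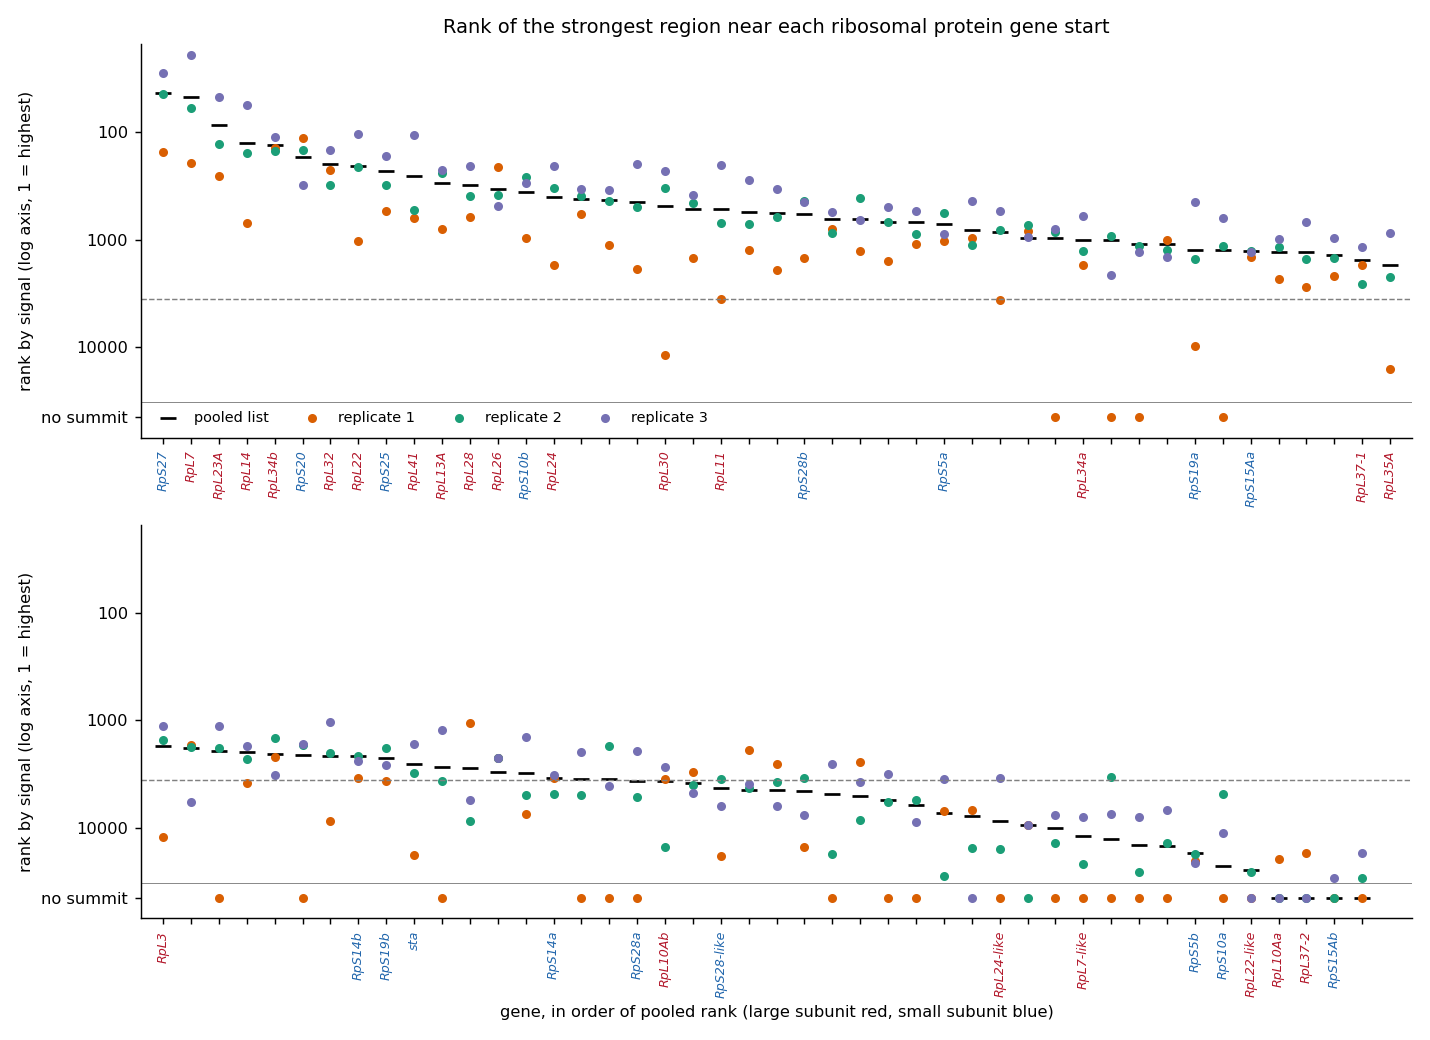
Rank by signal (log axis, 1 at the top) of the strongest region with a summit within 1 kb of a TSS, for the 89 RP genes in order of pooled rank, with names for the first 15, the paralogues and the 7 widest gaps between replicates 1 and 3. Coloured points are replicates, black bars the pooled list, and the dashed line is rank 3586, the length of the reproducible list. At RpL30, RpS19a, RpL35A, RpL3 and sta the replicate 1 point falls far below the others.

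The excess over other genes was present in each replicate. In the top lists of replicates 1, 2 and 3, 48, 60 and 65 RP genes had a summit within 1 kb of a TSS, beside 19.7%, 20.6% and 20.4% of all protein-coding genes. The share was 64.8% ± 9.82 for RP genes and 20.0% ± 0.447 for all other genes (SD, n = 3). The difference was 44.8 ± 9.44 percentage points, above 0 in 3 of 3 replicates (exact sign-flip over replicates, two-sided p = 0.25, the lowest that 3 of them can give). The SD over replicates was larger for the 89 RP genes than for the 13856 other genes. Top lists of equal length hold the share over so many genes nearly fixed, so the SDs are not comparable. By the caller's own measure, a −log10 q of 2 or more, 40, 69 and 74 RP genes had such a summit in replicates 1, 2 and 3, beside 15.4%, 26.6% and 33.4% of all protein-coding genes. The lists held 2385, 5289 and 7213 such regions in all, so fewest regions passed in replicate 1, and the reason was not tested. Read depth is unknown.

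Of the 62 bound members, 40 were in all 3 top lists (64.5%), 17 in 2 (27.4%) and 5 in 1 (8.06%). Other bound genes were near this, with 59.8% in all 3, 28% in 2 and 11.1% in 1. None of the 27 unbound members was in all 3, 1 was in 2, 12 were in 1 and 14 were in none. The reproducible list is the top of the pooled list, so bound and unbound members meet at a cut in pooled signal. Just inside it were RpS14a and RpL12, with pooled ranks of 3453 and 3554. Just outside were RpS28a, RpL10Ab and RpL10, at 3662, 3679 and 3828. Signals on both sides were close, at 92.1 for RpL12 and 90.3 for RpS28a.

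Large subunit genes were bound in 37 of 50 cases (74.0%, 60.4 to 84.1) and small subunit genes in 25 of 39 (64.1%, 48.4 to 77.3). In the top lists of replicates 1, 2 and 3, 31, 35 and 36 large subunit genes had a summit, against 17, 25 and 29 small subunit genes. The share was 68.0% ± 5.29 for large and 60.7% ± 15.7 for small subunit genes (SD, n = 3). The difference of 7.32 ± 10.5 percentage points was smaller than its spread. Large subunit genes were ahead in replicates 1 and 2, and small subunit genes in replicate 3 (exact sign-flip over replicates, two-sided p = 0.5). Without replicate 1 the difference was 1.77 points, and without replicate 3 it was 12.2. With the 1793 highest regions per list it was 17.2 ± 5.42, and with a window of 500 bp it was 12.6 ± 11.1. With peak intervals that overlap a TSS it was 9.86 ± 6.39. In each of these settings large subunit genes were ahead in every replicate (exact sign-flip over replicates, two-sided p = 0.25, the lowest that 3 of them can give). By the same test p was 0.5 with a 5 kb window (5.73 ± 7.26) and with canonical TSSs only (7.32 ± 10.5). Median rank was 683 for bound large and 1098 for bound small subunit genes. The median summit position was 34 bp upstream for large and 31 bp upstream for small subunit genes.

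**Figure D2:**
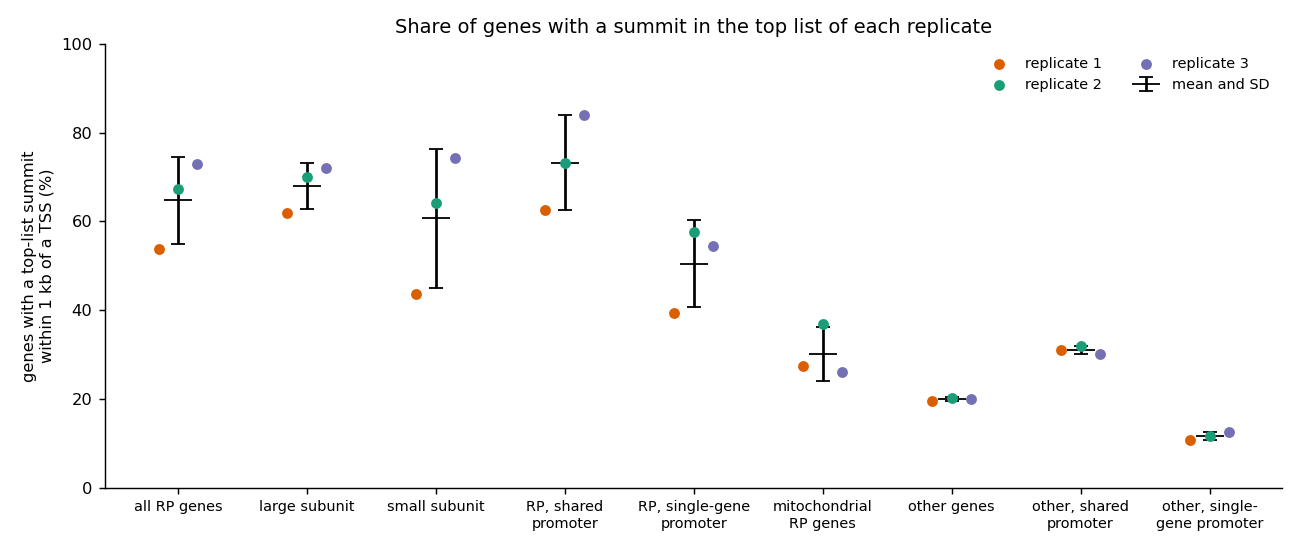
Share of genes with a summit in the top list of each replicate within 1 kb of a TSS, for RP genes, their classes, mitochondrial RP genes and all other genes. Points are replicates 1 to 3 and bars are the mean and SD over replicates. RP genes averaged 64.8% and other genes 20.0%, and replicate 1 was lowest for RP genes.

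Peaks at RP genes sat closer to the TSS than those counted at other genes. A peak was counted at every gene with a TSS within 1 kb, and 1953 of the 2887 other bound genes had a shared promoter. Distances at other genes were not split by promoter sharing. Among bound members, 52 of 62 summits (83.9%) were within 100 bp of a TSS, against 34.6% at other bound genes. The median position was 32.5 bp upstream at RP genes and 121 bp upstream at other genes. RP summits ran from 889 bp upstream to 37 bp downstream, with 51 upstream, 9 downstream and 2 at the TSS itself, among them RpS29. The upstream share was near that of other genes, 82.3% against 82.5%. In the replicate top lists the median distance from the TSS, on either side, was 50.5 ± 27.1 bp at RP genes and 162 ± 22.3 bp at other genes (SD, n = 3). The difference was −112 ± 9.44 bp, below 0 in all 3 replicates (exact sign-flip over replicates, two-sided p = 0.25, the lowest that 3 of them can give). With only the canonical TSS of each gene, the median position at RP genes was 45.5 bp upstream.

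Most RP summits fell in intergenic sequence (43 of 62), and 17 fell in a 5' UTR, 16 of them the gene's own. The exception was RpL13, whose summit lay in the 5' UTR of Dref, the gene for the factor that binds the DRE. Coding sequence held 0 of 62 RP summits, which allows a share of up to 4.84%, and 25 of 2887 at other genes. Gene bodies outside coding sequence and UTRs held 2 RP summits (3.23%), against 21.5% at other genes. These were at RpL41 and at RpS19b, in the body of CG5854. RpS19b and RpS15 were also the members with a summit more than 500 bp from their TSS, at 889 and 586 bp upstream.

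**Figure D3:**
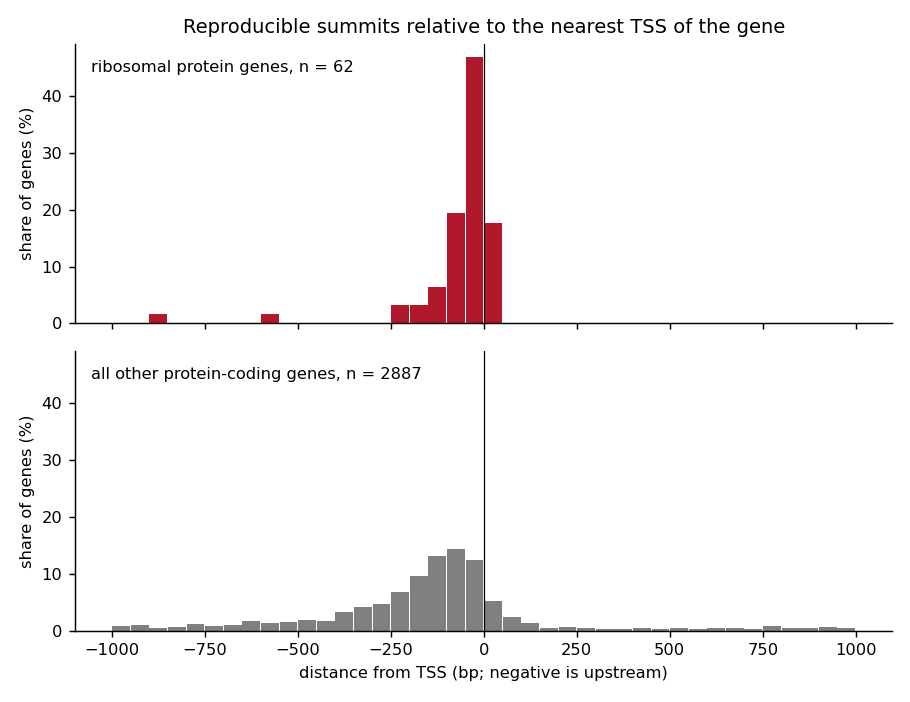
Distance of the strongest reproducible summit from the nearest TSS of each bound gene, in bins of 50 bp, for 62 RP genes (above) and 2887 other genes (below). The vertical axis is the share of bound genes. RP summits crowd within 100 bp of the TSS, 83.9% of them, while those of other genes extend further upstream.

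Many RP genes share their promoter region with another gene, and these were bound more often. For 56 of 89 members another protein-coding gene had a TSS within 1 kb of an RP TSS, and in 52 of these the nearest one pointed the other way from upstream, head to head. Reproducible summits lay at 43 of the 56 genes with a shared promoter (76.8%, 64.2 to 85.9) and at 19 of the 33 with a single-gene promoter (57.6%, 40.8 to 72.8). In the top lists of replicates 1, 2 and 3, 35, 41 and 47 shared promoters had a summit, against 13, 19 and 18 single-gene promoters. The share was 73.2% ± 10.7 for shared and 50.5% ± 9.74 for single-gene promoters (SD, n = 3). Shared promoters were ahead in 3 of 3 replicates, by 22.7 ± 6.88 percentage points (exact sign-flip over replicates, two-sided p = 0.25, the lowest that 3 of them can give). Other genes differed in the same direction, with 32.9% of 5929 shared and 11.8% of 7927 single-gene promoters bound. With only protein-coding partners counted, RP genes with a single-gene promoter had a summit more often than other genes with a shared one. Counting partners of any biotype, 70 members had a shared promoter, and 55 of these were bound (78.6%). The difference between shared and single-gene RP promoters was then 31.1 ± 7.29 percentage points. Other genes were divided by protein-coding partners only, so this wider definition has no share beside it.

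At shared promoters the summit was usually the nearer to the RP gene. It lay closer to the RP TSS at 35 of 43 bound members and closer to the partner's at 7. RpS27A, a ubiquitin fusion gene that shares its start position with Ip259, was equally near to both. Among the 7 were RpL13 with Dref, RpL18 with Neos, RpL34a with Trmt61, RpS20 with CG17271, RpS15 with CG4927 and RpS19b with CG5854. At RpL18, for example, the summit was 209 bp from the RP TSS and 68 bp from the TSS of Neos. Summits at bound single-gene promoters were 34 bp upstream at the median and those at shared ones 31 bp. The tight position was therefore seen where no other protein-coding gene starts within 1 kb. Some of these promoters have a noncoding gene start within 1 kb, since 55 bound members had a partner of any biotype. Positions at promoters with no other gene start of any biotype were not set apart. No 2 RP genes shared 1 reproducible summit, so the 62 bound members rest on 62 peaks.

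Within sets of paralogues, usually 1 gene was bound and its duplicate was not. The 12 sets hold 25 genes, of which 14 were bound (56.0%, 37.1 to 73.3), beside 21.1% of all protein-coding genes. In 8 sets 1 gene had a reproducible summit, in 3 both had, and in 1 neither had. Whether sets with 1 bound gene were more frequent than the 56.0% alone would give was not tested. RpL22 had a pooled rank of 204, while RpL22-like, a duplicate used in the testis, had 24839 and a summit in its coding sequence 431 bp downstream. RpS5a had 717, while RpS5b, a duplicate of the female germline, had 17394, and ranks of 20492, 17559 and 21402 in replicates 1, 2 and 3. RpS10b had 361, while RpS10a, a testis duplicate, had 23014. The bound genes RpL22, RpS5a and RpS10b appeared in every replicate's top list, and their duplicates in none of them.

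The remaining sets gave a similar picture, with exceptions. RpL37-1 (pooled rank 1566) and RpS15Aa (1267) were bound, while RpL37-2 and RpS15Ab had no pooled region within 1 kb of a TSS. RpL7 and RpL24 were bound at ranks 47 and 403. RpL7-like and RpL24-like, whose yeast relatives act in ribosome assembly, had 12064 and 8675, although RpL24-like reached the top list of replicate 3 at rank 3432. RpS28b was bound at rank 578, RpS28a lay just outside at 3662, and RpS28-like had 4277, with its summit 579 bp downstream. RpS28a reached the top list of replicate 3 at rank 1938, and RpS28-like that of replicate 2 at rank 3486. In the set with neither bound, RpL10Ab stood at 3679 and was in 2 top lists, at rank 3487 in replicate 1 and 2738 in replicate 3, while RpL10Aa had no pooled region.

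In 3 pairs both genes were bound. RpL34b and RpL34a had pooled ranks of 131 and 1003 and were in all 3 top lists. RpS14b and RpS14a, which follow one another on X with 1156 bp between their starts, had 2157 and 3453. Their summits were separate, 55 bp and 36 bp upstream. RpS19a and RpS19b, the second a germline duplicate, had 1241 and 2228, but the RpS19b summit was 507 bp from a TSS of CG5854 and 889 bp from its own. Over all 12 sets the longest run of identical bases between paired promoters, from 250 bases before the TSS to 50 after, was 11, at RpS14a and RpS14b.

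**Figure D4:**
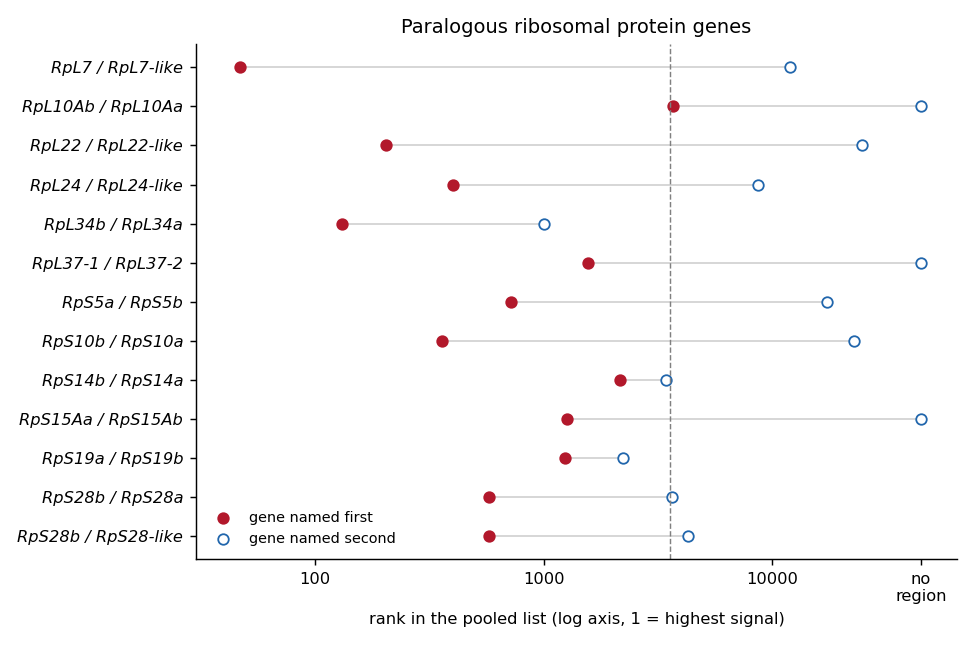
Pooled rank (log axis) of paralogous RP genes, the gene named first filled and the gene named second open. The dashed line is rank 3586, the end of the reproducible list, and points at the right edge have no pooled region within 1 kb of a TSS. RpL34, RpS14 and RpS19 have both genes left of the line.

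The 27 unbound members comprised 11 genes of paralogue sets and 16 others. Among these 16 were RpL5, RpL6, RpL10, RpL21, RpL35, RpL39, RpL40, RpS2, RpS3, RpS6, RpS9, RpS13, RpS24 and RpS30. All but RpS3 had a pooled region within 1 kb of a TSS, as did 85 of 89 members and 62.7% of all protein-coding genes. Several were just below the cut. RpL10 had a pooled rank of 3828 and ranks of 3019, 4022 and 4780 in replicates 1, 2 and 3. RpS6, the target of S6 kinase in growth signalling, had 4466, with a summit 516 bp upstream and 33 bp from a TSS of bys. RpL5, which binds the small ribosomal RNA of the large subunit together with RpL11, had a pooled rank of 5115. RpL5 was in the top list of replicate 1 at rank 2425, while RpL11 was bound at rank 517.

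Others had a pooled rank far from the reproducible list. RpS3 (FBgn0002622, 3R from 23358812 to 23360207), a Minute gene, had regions ranked 29643 in replicate 2 and 17260 in replicate 3 and none in replicate 1. RpS9 had a pooled rank of 14566, RpL39 had 14837 and RpS24 had 12841. RpS24 was all the same in the top list of replicate 2, at rank 3392, with a summit 998 bp downstream. RpL40, which like RpS27A encodes a ubiquitin fusion, had 9412, with its summit 478 bp downstream in coding sequence, while RpS27A was bound at rank 1098. Among genes outside the paralogue sets, 48 of 64 (75.0%, 63.2 to 84.0) were bound, 31 of 38 large and 17 of 26 small subunit genes. By position, 13 of 15 members on X were bound, 10 of 13 on 3L, 13 of 19 on 2R, 14 of 23 on 3R and 11 of 18 on 2L. The 1 member on chromosome 4 was bound. In the top lists of replicates 1, 2 and 3, 13, 12 and 13 members on X had a summit, as did 10, 8 and 10 on 3L. The counts were 9, 13 and 12 on 2R, 9, 14 and 18 on 3R and 7, 12 and 11 on 2L. Shares of all genes by arm were not set beside these counts, so differences between arms cannot be judged.

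RP peaks ranked lower in replicate 1 than in the other replicates. Over the 53 bound members with a region in every replicate, the median rank was 1472 in replicate 1, 721 in replicate 2 and 496 in replicate 3. For the 2714 other bound genes with a region in every replicate, the same medians were 1354, 1501 and 1728. Of the bound members 9 had no region at all in replicate 1 (14.5%, against 5.82% of other bound genes), and 0 lacked one in replicates 2 and 3. Among the 9 were RpL9, RpL12, RpL27, RpL29, RpL37A, RpS3A, RpS4 and RpS27A. In the 53 members found in both lists, rank in replicate 1 over rank in replicate 3 had a median of 3.22, and it was above 1 in 46. At other bound genes it was 0.748, and above 1 in 38.9%.

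The widest gaps were at RpL30, RpS19a, RpL35A, RpL11 and RpL14. RpL30 ranked 12010 in replicate 1, against 329 and 231 in replicates 2 and 3, and its −log10 q was 0.311 in replicate 1 and 3.66 in replicate 3. RpS19a ranked 9787, 1517 and 450, and RpL35A ranked 16030, 2215 and 867. RpL11 ranked 3559, 697 and 201. The opposite order was seen at 7 members, which were RpS20, RpL26, RpL18, RpS26, RpL38, RpS15 and RpL15. RpL15 ranked 1065 in replicate 1, against 8740 and 5512 in replicates 2 and 3.

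Base composition moved with this difference. GC content in the 201 bases around the summit had a median of 43.0% at bound RP genes and 37.8% at other bound genes. RP genes above 37.8% had a median rank ratio of 3.35 (45 genes in both lists), and the 8 at or below it had 0.790. Other genes above it had 1.06 and the rest 0.585. With GC above 37.8% and a summit within 100 bp of a TSS, the ratio was 3.86 for RP genes (39 in both lists) and 1.21 for other genes. Of these, 17.0% of RP genes and 11.4% of other genes had no region in replicate 1. The part of GC content in the difference was not tested.

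Replicate 1 also placed RP summits further upstream. In the 40 members present in all 3 top lists, the median position was 78 bp upstream in replicate 1, 44.5 bp in replicate 2 and 33 bp in replicate 3. Gene by gene, the replicate 1 summit was upstream of the replicate 3 summit in 31 of 40, and the median difference in position over all 40, replicate 1 minus replicate 3, was −28.5 bp. The same difference in 1738 other genes was −1 bp, with 870 upstream and 846 downstream. Among genes with a reproducible summit within 100 bp of a TSS and GC above 37.8%, it was −21 bp in 30 RP genes, with 23 upstream, and −7.5 bp in 286 other genes, with 163 upstream. In some members the strongest region of a replicate was another one, as at RpS28b, where it lay 705 bp upstream in replicate 1 and 31 bp upstream in replicates 2 and 3. Without replicate 2 the median position over the remaining replicates was 61.2 bp upstream, and without replicate 3 it was 62.0 bp, against 35.5 bp without replicate 1.

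RP promoters carried the TCT initiator and the DRE far more often than other promoters, and the shares in bound and unbound members had overlapping intervals. The TCT initiator was within 5 bases of the canonical TSS in 37 of 89 RP genes (41.6%), beside 1.45% of all protein-coding genes. It stood in 26 of 62 bound (41.9%, 30.5 to 54.3) and 11 of 27 unbound members (40.7%, 24.5 to 59.3). Counting any TSS it was in 59.6% of RP genes and 2.13% of all genes. The other motifs were searched in the 300 bases from 250 before the TSS to 50 after, on both strands except for the TATA box. The DRE (TATCGATA) was in 28 RP promoters (31.5%), beside 8.94% of all promoters. It was in 18 of 62 bound (29.0%, 19.2 to 41.3) and 10 of 27 unbound members (37.0%, 21.5 to 55.8).

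Of 28 members with a DRE 18 were bound (64.3%), and of 61 without it 44 were (72.1%). At other genes 31.0% of those with a DRE and 19.9% of those without were bound. The core of M1BP motif 1 (GGTCACAC) was in 14.6% of RP promoters and 7.54% of all promoters. Of 13 members with it 10 were bound (76.9%), and of 76 without it 52 were (68.4%). At other genes 31.3% of those with it and 20% of those without were bound. In the top lists of replicates 1, 2 and 3, 4, 8 and 10 of the 13 members with it had a summit. Of the 76 without it, 44, 52 and 55 did. The TATA box (TATAAA, on the strand of the gene) was in 32.6% of RP promoters and 32.2% of all promoters. GAGAG was in 15.7% of RP promoters, beside 30.2% of all promoters. The Mad site (GCCGNCGC), a GC-rich element bound by the Smad partner of Schnurri, was in 3 RP promoters (3.37%), beside 3.36% of all promoters. Matches are descriptions of letters and not of binding by the factors named.

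**Figure D5:**
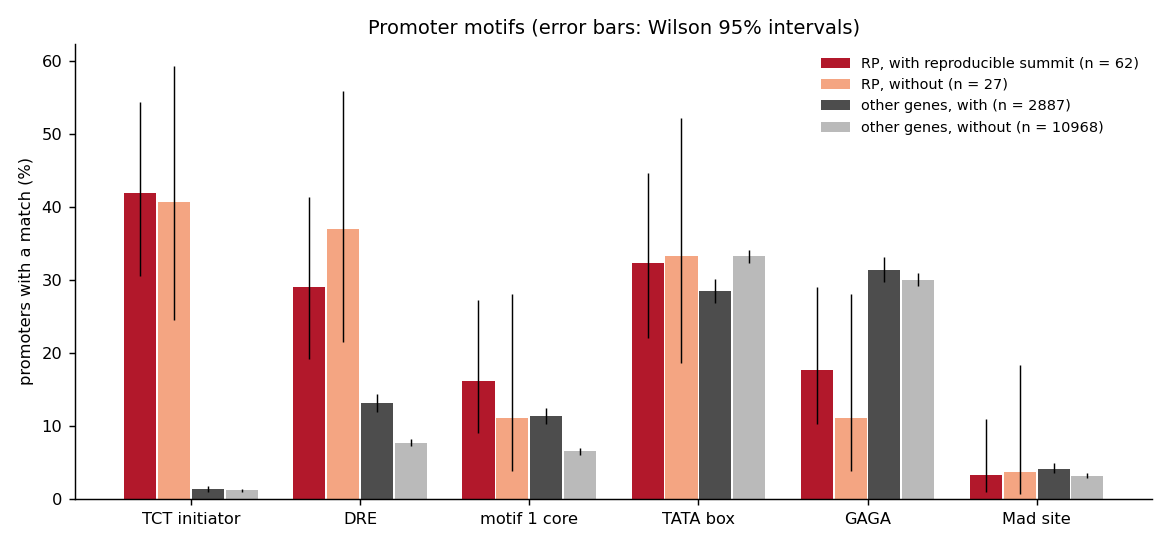
Share of promoters with a match to each motif, for RP genes with and without a reproducible summit and other genes with and without one. Error bars are Wilson 95% intervals over genes. The TCT initiator and the DRE stand out in RP genes of both kinds, at 41.9% and 40.7% for TCT and 29.0% and 37.0% for the DRE.

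Genes of related function were bound to differing degrees. Of the stalk genes, which the naming rule leaves out, RpLP0 was bound at rank 358 and RpLP1 at 1037, and RpLP2 was not bound. RpLP0-like, whose yeast relative acts in ribosome assembly and is no part of the mature stalk, was bound at 672. Elongation factor genes, whose symbols start with eEF, had 4 of 8 bound. These were eEF1gamma at 281, eEF1alpha1 at 543, eEF5 at 711 and eEF2 at 716. All 7 bound genes named RpLP or eEF had their summit within 100 bp of a TSS. Initiation factor genes, whose symbols start with eIF, had 10 of 44 bound (22.7%), near the share of all genes. Of these eIF1 shares its peak with RpL28, 326 bp from the nearest eIF1 start. Of 19 ribosome assembly genes 8 were bound, including Fib (fibrillarin) at 1423 and Nopp140 at 1252. That list also holds Rrp1, a DNA repair gene despite its symbol, at rank 1537, and the release factor gene eRF1 at 2105.

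Mitochondrial RP genes, which encode the proteins of the separate ribosome of mitochondria, were the nearest comparison by name. Cytoplasmic RP genes were bound in 69.7% of cases, against 27 of 73 mitochondrial RP genes (37.0%, 26.8 to 48.5). The median summit lay 32.5 bp upstream at cytoplasmic and 139 bp upstream at mitochondrial RP genes. The TCT share was 41.6% in cytoplasmic and 1.37% in mitochondrial RP genes, and the DRE share was 31.5% in cytoplasmic and 20.5% in mitochondrial ones. In the top lists of replicates 1, 2 and 3, 27.4%, 37.0% and 26.0% of mitochondrial RP genes had a summit, below the cytoplasmic RP genes in each.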

How the data were processed

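Peak lists on dm6 were read as deposited. Per the deposited notes, the authors called regions on each replicate and on the pooled replicates against a control, and derived the reproducible list from these. The authors' caller set the deposited signal and −log10 q of each region. The caller is not given in the sources used here, and summit positions were used as given. The lists on dm3 were not used. The 3586 reproducible peaks equalled the first 3586 of the pooled list by signal, at the same ranks.

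Genes and 19607 distinct TSSs came from Ensembl release 115 (BDGP 6.54), and sequence from the RefSeq Release 6 genome. For each gene the region of highest signal with a summit within 1 kb of any TSS was taken. Python 3.11.15, numpy 2.4.6, pandas 2.3.3 and statsmodels 0.14.6 (Wilson intervals) were used, and the assignment was tested on simulated summits, of which 200 of 200 were recovered. Members, lists and paralogue sets were chosen with earlier results of these data known. Comparisons over replicates used the two-sided exact sign-flip test. Its p is 0.25 whenever the 3 differences share a sign, whatever their size. No p-value covers variation beyond these 3 samples. The named genes were the 15 of highest pooled signal, unbound members, paralogues, those beside the cut, those with the widest rank gaps and those over 500 bp away; some members are counted but not reported by name here. Of 20 assembly gene symbols 19 were found.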

Additional observations from a re-analysis of the deposited data

How the results depend on the processing

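Of 46 alternative values 41 kept their direction and, for values without a test, stayed within 1 SD over replicates or 1.5 times the ratio. With only the first 1793 reproducible peaks by signal, 51.7% of RP genes were bound, against 11.7% of all other genes. With 1 replicate left out, a gene had to be in both remaining top lists. By that rule 61.8% of RP genes were bound without replicate 1, 47.2% without replicate 2 and 46.1% without replicate 3. Shares of other genes under that rule were not set beside these. Bound RP genes in all 3 top lists came to 44.9% of RP genes, a setting chosen after seeing the data. Among all other genes, bound or not, 12.5% were in all 3. The rank ratio of replicate 1 over replicate 3 was 0.790 in the RP genes with GC at or below 37.8%, also chosen after seeing the data, and the cause was not tested. With 500 bp or 5 kb windows, summits of canonical TSSs only, or intervals that overlap a TSS, the difference between RP and other genes was 36.9 to 46.8 points. No paired analysis was possible because the samples form 1 group. Depth is unknown, and 3 replicates cannot give a p below 0.25.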
